A study of Mus musculus with 10 samples.

Results

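App, Trem2 and Npc1 are 3 of the 545 endogenous genes on an nCounter mouse immune panel and were chosen by gene name. Variants of their human counterparts are linked to diseases in which neurons are lost. They were measured in microglia, the resident macrophages of the brain, isolated from the hippocampus of male Balbc mouse pups at postnatal day 14. The 5 pups given brief daily separation (BDS), numbered 11, 17, 24, 38 and 59 in the labels, were taken from the dam for 15 min a day on a schedule that ran over postnatal days 1 to 21. The 5 control pups were numbered 1, 18, 40, 52 and 69. All 10 pups were of the same strain, sex and age, and each came from a litter of its own. Microglia were enriched by Percoll centrifugation and then by FACS, and 2 ng of RNA per pup was copied to cDNA and amplified by 5 rounds of PCR. The choice of the 3 genes was made with their values in BDS and control pups known. Their differences between these groups are therefore given as a description, without a p-value for any of them.

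Npc1 encodes a membrane protein of late endosomes and lysosomes that moves cholesterol out of these organelles, and its loss causes Niemann-Pick disease type C, in which cholesterol builds up in lysosomes and microglia become activated. App encodes the amyloid precursor protein, a transmembrane protein that is abundant in neurons and is also made by other cells. Successive cuts by beta- and gamma-secretase release from it the amyloid-beta peptide that forms the plaques of Alzheimer's disease. Trem2 encodes a myeloid surface receptor for lipids, lipoproteins and amyloid-beta. It signals through the adaptor Tyrobp (DAP12) and the kinase Syk and is needed for microglia to gather around plaques.

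The panel counts fluorescent barcodes bound to target molecules, and 1 lane was run per pup. Endogenous counts averaged 716937 ± 245521 per lane in BDS pups and 371619 ± 281958 in control pups (SD, n = 5 each), with a full range of 76237 in control 52 to 968930 in BDS 17. A normalized count is the raw count divided by the lane's geometric mean of 6 housekeeping genes, rescaled to the average lane. That housekeeping mean was higher in BDS lanes by 1.23 on the log2 scale, so group and lane depth were not independent, and control 52 and control 69 were the shallowest lanes. A gene was tested when, in 4 or more of the 10 lanes, its raw count was over a limit set 2 SD above the mean of that lane's negative-control probes, which held for 283 genes. All 3 genes exceeded that limit in 10 of 10 lanes, and the lowest raw count of any of them was 245, for App in control 52. Of 12 microglia markers looked for, 9 were on the panel (Csf1r, Cx3cr1, Itgam, Irf8, Tgfbr1, Ptprc, Emr1, C1qa and C1qb), and all 9 passed the filter. Together they took 26.0% to 34.0% of endogenous counts in every lane. Single markers went both ways, with 6 of the 9 higher and 3 lower in BDS, beside 158 higher and 125 lower of all 283 genes. Furthest from 0 were Ptprc (0.83 ± 0.26), C1qa (0.76 ± 0.20), Cx3cr1 (-0.63 ± 0.23) and Itgam (-0.56 ± 0.18), as log2 fold change ± SE.

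Across the 283 genes, edgeR's quasi-likelihood test put 0 genes (0%) past a Benjamini-Hochberg adjusted p of 0.05. At an unadjusted p under 0.05 it put 80 genes (28.3%), 55 of them higher (19.4%) and 25 lower (8.83%) in BDS. DESeq2 with the same scaling called 25 genes at the adjusted threshold, and limma called 0 there and 74 at the unadjusted one.

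Npc1 was the member with the lowest BDS level relative to control. Its normalized counts in BDS lanes were 3563 in pup 11, 3164 in pup 17, 3510 in pup 24, 3865 in pup 38 and 3914 in pup 59. In control lanes they were 6275 in pup 1, 5121 in pup 18, 5470 in pup 40, 2820 in pup 52 and 5818 in pup 69. Every BDS lane lay below 4 of the 5 control lanes, and the groups overlapped through control 52 alone, the shallowest lane, which was lower than any BDS lane. BDS lanes averaged 3603 ± 303 and control lanes 5101 ± 1344 normalized counts (SD, n = 5 each). The log2 fold change was -0.50 ± 0.20 (SE). Without control 52 it was -0.65. With all lanes, Npc1 had the 40th lowest log2 fold change of the 283 genes. Normalized counts of 13 of the 283 genes (4.59%) did not overlap between the groups, 3 of them lower in BDS (1.06%), and Npc1 was not among them. As a share of all endogenous counts in the lane, Npc1 took 0.818% ± 0.0610 in BDS lanes and 1.18% ± 0.275 in control lanes. In a bulk sort of this kind, fewer cells that express a gene and less of its RNA per cell cannot be told apart. The authors' deposited table gives group means of 4778 for BDS and 7627 for control in its own normalized units and a BDS over control ratio of 0.63. The deposited values divided by the raw counts followed the geometric mean of 5 housekeeping genes without Sdha (SD of the log2 ratio over lanes 2.18e-05), and scaling without Sdha gave a log2 fold change of -0.68 here.

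Trem2 lay on the other side of its control level. Its BDS lanes stood at 5752 normalized counts in pup 11, 6089 in pup 17, 5619 in pup 24, 7753 in pup 38 and 6813 in pup 59. The control lanes stood at 4054 in pup 1, 4731 in pup 18, 5199 in pup 40, 5263 in pup 52 and 7162 in pup 69. All 5 BDS lanes exceeded 4 of the 5 control lanes, and here the overlap came from control 69, which was above every BDS lane but pup 38. The means were 6405 ± 885 in BDS pups and 5282 ± 1157 in control pups (SD, n = 5 each). The log2 fold change was 0.28 ± 0.18 (SE). It was 0.41 without control 69 and 0.20 without control 1. With all lanes, Trem2 had the 111th highest log2 fold change of the 283 genes. Of all endogenous counts, Trem2 took 1.45% ± 0.133 in BDS pups and 1.22% ± 0.197 in control pups. The authors' deposited table gives means of 8472 for BDS and 7996 for control, a ratio of 1.06, and scaling without Sdha gave a log2 fold change of 0.08 here, against 0.28 with it.

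App showed the widest scatter of the 3 among control pups. In BDS lanes it was at 2993 normalized counts in pup 11, 2304 in pup 17, 2499 in pup 24, 2368 in pup 38 and 2662 in pup 59. In control lanes it was at 4711 in pup 1, 2829 in pup 18, 3511 in pup 40, 1250 in pup 52 and 2436 in pup 69. The BDS values all fell inside the control range, so the groups were not separated. App averaged 2565 ± 276 in BDS pups and 2947 ± 1283 in control pups (SD, n = 5 each). The log2 fold change, -0.20 ± 0.27 (SE), was smaller than its error. A single control pup decided its sign, with 0.03 without control 1 and -0.40 without control 52. Shares of endogenous counts were 0.585% ± 0.0862 in BDS lanes and 0.683% ± 0.300 in control lanes. The authors' deposited table gives means of 3409 for BDS and 4376 for control, a ratio of 0.78.

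**Figure D1:**
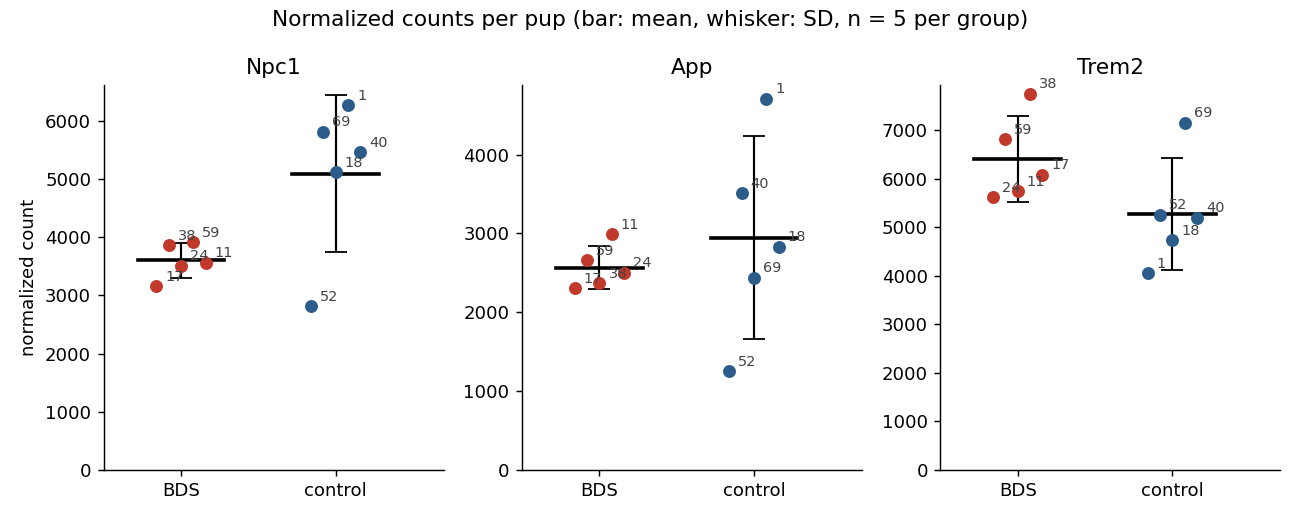
Normalized counts (vertical axis, from 0) of Npc1, App and Trem2 in each BDS and control pup, 1 point per pup with its number; thick bars are means and whiskers SDs (n = 5 each). BDS pups of Npc1 lie between 3164 and 3914, below all control pups but number 52 at 2820, while BDS pups of Trem2 lie above all control pups but number 69 at 7162.

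For all 3 genes the pups differed less among themselves in the BDS group. The coefficient of variation of the normalized count was 8.42% in BDS lanes and 26.4% in control lanes for Npc1. It was 10.7% in BDS lanes and 43.5% in control lanes for App, and 13.8% in BDS lanes and 21.9% in control lanes for Trem2. On the log2 scale the SD of Npc1 was 0.12 in BDS lanes and 0.46 in control lanes, where the median gene of the 283 had 0.29 in BDS lanes and 0.46 in control lanes. App had 0.15 in BDS lanes and 0.72 in control lanes, and Trem2 0.19 in BDS lanes and 0.30 in control lanes. Control lanes also spanned a wider range of depth, with housekeeping means of 113 to 1060 raw counts against 477 to 1254 in BDS lanes, and the part of depth in this spread was not tested.

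Ratios of raw counts within a lane do not depend on how lanes are scaled. They set the lanes against each other and are not ratios of transcript number, because each probe has its own efficiency. The Npc1 to Trem2 count ratio was 0.620 in BDS 11, 0.520 in BDS 17, 0.625 in BDS 24, 0.499 in BDS 38 and 0.575 in BDS 59. In control lanes the ratio was 1.55 in pup 1, 1.08 in pup 18, 1.05 in pup 40, 0.536 in pup 52 and 0.812 in pup 69. All BDS lanes were thus below 4 of the 5 control lanes, again with control 52 inside the BDS range. On the log2 scale the mean was -0.82 ± 0.15 in BDS pups and -0.08 ± 0.57 in control pups (SD, n = 5 each), a difference of -0.75. Without control 52 the control mean was 0.13 ± 0.38 and the difference was -0.95. Control 52 was the only control lane inside the BDS range, so leaving it out ends the overlap by construction. This ratio combines a lower Npc1 value with a higher Trem2 value, each described above.

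Against App, Npc1 was also lower in BDS lanes on average. The log2 ratio of Npc1 to App was 0.49 ± 0.17 in BDS lanes and 0.87 ± 0.35 in control lanes, a difference of -0.37, and control 1 at 0.41 and control 40 at 0.64 lay within the BDS range of 0.25 to 0.71. For App against Trem2 the log2 ratio averaged -1.32 ± 0.29 in BDS lanes and -0.94 ± 0.89 in control lanes. Its control lanes ran from -2.07 in pup 52 to 0.22 in pup 1 and enclosed every BDS lane. That difference, -0.37, was -0.08 without control 1 and -0.65 without control 52.

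Trem2 was also set against its adaptor gene Tyrobp. The log2 ratio of Trem2 to Tyrobp was 1.65 in BDS 11, 1.38 in BDS 17, 1.50 in BDS 24, 1.57 in BDS 38 and 1.92 in BDS 59. Control lanes had 1.53 in pup 1, 1.37 in pup 18, 1.71 in pup 40, 0.25 in pup 52 and 1.17 in pup 69. The means were 1.60 ± 0.20 in BDS pups and 1.21 ± 0.57 in control pups (SD, n = 5 each), a difference of 0.40 that was 0.16 without control 52. Control 52 was thus the lowest lane, and the other 9 lanes of both groups, from 1.17 to 1.92, overlapped.

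**Figure D2:**
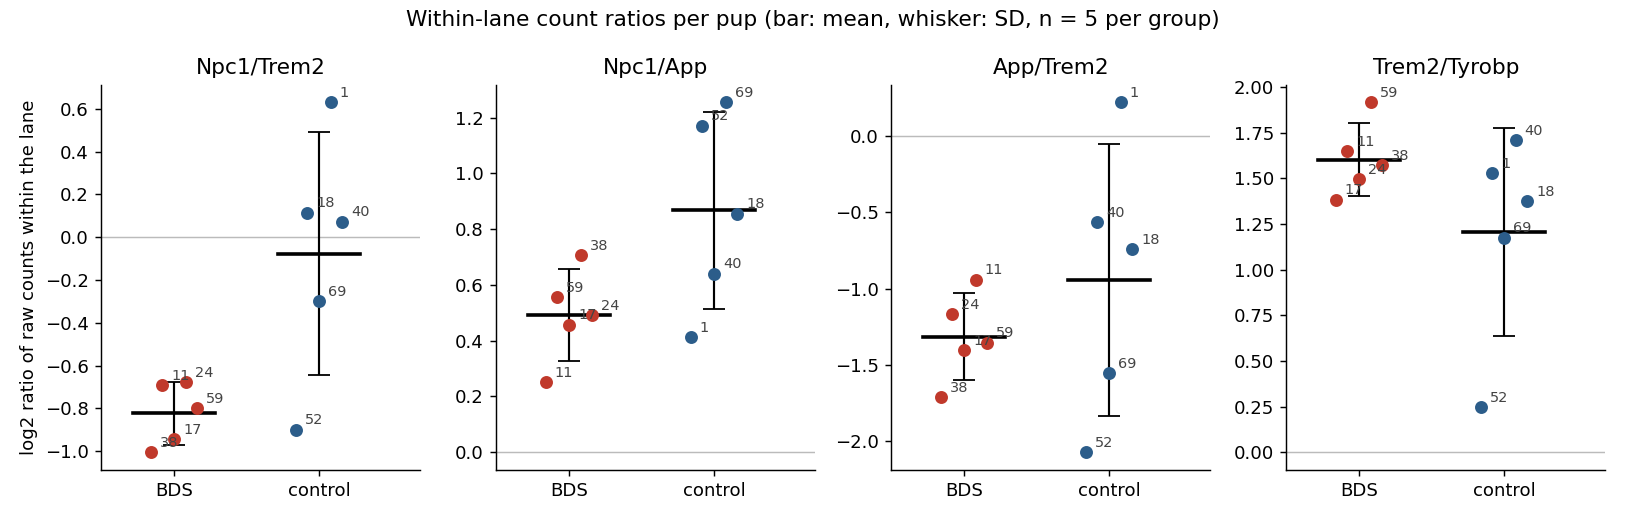
Log2 ratios of raw counts within a lane for Npc1 to Trem2, Npc1 to App, App to Trem2 and Trem2 to Tyrobp, 1 point per BDS or control pup with its number; thick bars are means and whiskers SDs (n = 5 each). BDS pups of the Npc1 to Trem2 ratio lie at -0.68 or lower, and control pup 52 at -0.90 is the only control among them.

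Because BDS lanes were deeper on average, each BDS lane was also set beside the control lane nearest to it in housekeeping signal. BDS 11 and control 1 had housekeeping means of 477 and 461 raw counts. At that depth Npc1 was at 3563 in BDS 11 and 6275 in control 1, App at 2993 in BDS 11 and 4711 in control 1, and Trem2 at 5752 in BDS 11 and 4054 in control 1. The deepest control lane, control 40 with 1060, was nearest to BDS 17, 24 and 38 with 1254, 997 and 1113. Npc1 in those BDS lanes was lower than in control 40 by 0.79, 0.64 and 0.50 on the log2 scale, and Trem2 was higher than in control 40 by 0.23, 0.11 and 0.58. BDS 59 and control 18 had housekeeping means of 813 and 640, with Npc1 at 3914 in BDS 59 and 5121 in control 18. The pairs use control 1, 18 and 40 and leave out control 52 and 69. Every BDS lane already lay below those 3 controls for Npc1 and above them for Trem2, so the choice of pairs fixed the signs for both genes, and only the sizes of the differences are read here. App was lower in the BDS lane of all 5 pairs, with App in BDS 59 lower by only 0.09. The pairs leave out the lowest control lanes of App, 52 at 1250 and 69 at 2436. Of the controls used, only control 18 at 2829 lay below any BDS lane, BDS 11 at 2993. The choice of pairs thus largely fixed the signs of App too. Since 3 of the 5 pairs share control 40, these are not 5 independent comparisons. With lane depth as a covariate in the edgeR fit, the log2 fold change was -0.69 ± 0.21 for Npc1, -0.49 ± 0.27 for App and 0.36 ± 0.21 for Trem2 (SE). That covariate is the log2 housekeeping mean, which also sets the scale and differed between the groups. Its low end rests on control 52 and 69, so the fit is not an independent correction for depth.

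**Figure D3:**
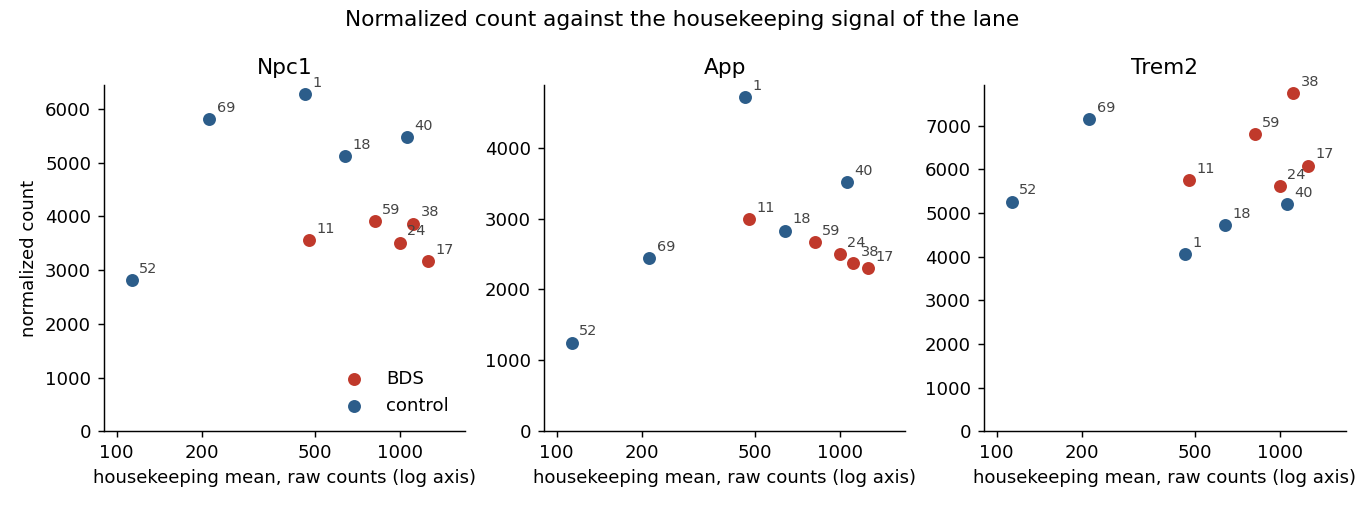
Normalized count (vertical axis, from 0) of Npc1, App and Trem2 against the housekeeping mean of the lane in raw counts (log axis), 1 point per BDS or control pup with its number. The 5 BDS lanes of Npc1 lie between 3164 and 3914, and the 3 control lanes at a like housekeeping mean (1, 18 and 40) between 5121 and 6275.

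Fold changes depended on which genes were taken as the scale. Over 11 other scalings, Npc1 ranged from -0.68 without Sdha to -0.42 without Polr1b, except for 0.59 with the positive controls alone. App ranged from -0.36 to -0.12, except for 0.77 with the positive controls alone, and Trem2 from 0.08 to 0.40, except for 1.56 with them. Positive controls are spiked in after the RNA steps and leave RNA input uncorrected, and with them the median of all 283 genes stood at 1.35, against 0.09 with the 6 housekeeping genes. Relative to that median, Npc1 was at -0.59 with the housekeeping genes and -0.76 with the positive controls, App at -0.29 and -0.58, and Trem2 at 0.19 and 0.21.

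**Figure D4:**
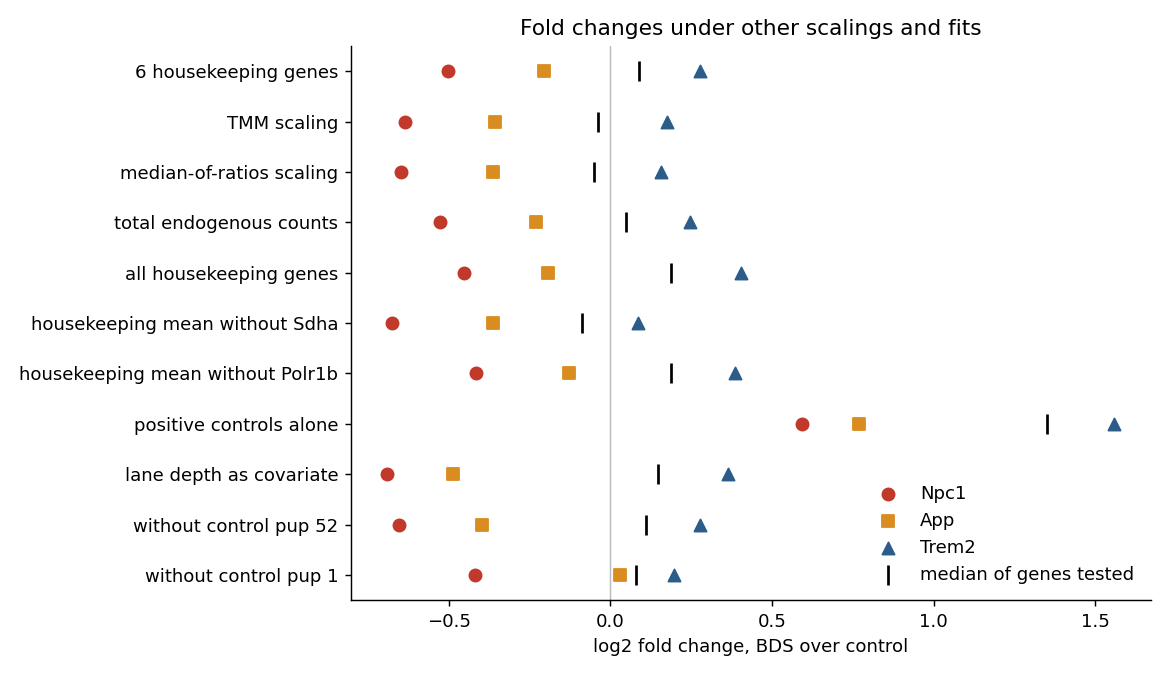
Log2 fold changes (BDS over control, horizontal axis) of Npc1, App and Trem2 and the median of the genes tested (black ticks) under the 6-gene housekeeping scaling, other scalings, a fit with lane depth, and fits without control pup 52 or 1. Npc1 lies left of the median and Trem2 right of it in every row shown; App lies left of it in every row, by 0.05 without control pup 1.

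Genes whose counts followed each member most closely were found by the SD, over the 10 lanes, of the log2 ratio of raw counts to the member. A small SD means a nearly constant proportion. Lanes of both groups entered the SD, so a fold change near the member's follows from the selection and is not independent agreement. For Npc1 the 3 closest of 282 genes were Ifnar2, a chain of the type I interferon receptor (0.17), Pecam1, an adhesion molecule of endothelium and leukocytes (0.18), and the integrin chain Itgam (0.22), where the median gene had 0.64. Their log2 fold changes were -0.28 ± 0.19 for Ifnar2, -0.56 ± 0.24 for Pecam1 and -0.56 ± 0.18 for Itgam (SE). For Trem2 the closest were Stat5b, a transcription factor of cytokine signalling, Blnk, an adaptor downstream of Syk, and Ifngr2, a chain of the interferon-gamma receptor. Each of these had an SD of 0.15, with a median of 0.48 over all genes. Their log2 fold changes were 0.30 ± 0.19 for Stat5b, 0.40 ± 0.20 for Blnk and 0.34 ± 0.17 for Ifngr2. For App the closest were the receptor gene Notch1 (0.25), Pecam1 (0.25) and the cytokine gene Il16 (0.26), with a median of 0.69. Log2 fold changes were -0.18 ± 0.21 for Notch1, -0.56 ± 0.24 for Pecam1 and 0.10 ± 0.21 for Il16. Over the other scalings but the positive controls, Il16 went as low as -0.07. Npc1 ranked 11th for App and App ranked 14th for Npc1 (0.33), while Trem2 was 118th for App and 91st for Npc1. All 10 lanes entered these values, control 52 and 69 included.

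Other genes of TREM2 signalling on the panel lay both above and below 0. Among 13 measured, 10 passed the filter, 5 of them higher and 5 lower, with a median log2 fold change of -0.03 beside 0.09 for all 283 genes. That median was above 0 under 5 of the 11 other scalings. At an unadjusted edgeR p under 0.05, 2 of 10 were higher and 1 was lower, beside 19.4% higher and 8.83% lower of all 283 genes, so the count was near the background. None passed the adjusted threshold. Tyrobp had a mean normalized count of 2115 ± 347 in BDS pups and 2486 ± 1293 in control pups (SD, n = 5 each). Its log2 fold change of -0.23 ± 0.29 turned to 0.09 without control 52. The kinase Syk was at 0.35 ± 0.23, the phosphatase Ptpn6 (SHP-1) at -0.23 ± 0.17 and the adaptor Card9 at 0.17 ± 0.24. Without control 52, Syk was at 0.18 and Card9 at 0.02, and with lane depth as a covariate Syk was at 0.01. The 3 under the unadjusted threshold were the Src-family kinase Fyn (0.96 ± 0.25), the adaptor Lcp2 (0.86 ± 0.23) and the kinase Src (-0.61 ± 0.22).

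Genes that rise in microglia around amyloid plaques, a state that depends on Trem2 in mouse models, were represented by 7 genes past the filter out of 8 measured. In BDS lanes 2 were higher and 5 lower, with a median of -0.20 that was 1.23 with positive controls alone, 0.18 with lane depth as a covariate and 0.02 without control 52. Of all 283 genes, 158 were higher and 125 lower, with a median of 0.09. At an unadjusted edgeR p under 0.05, 1 of the 7 was higher and 0 lower, beside 19.4% higher and 8.83% lower of all genes. The count was thus near the background, and 0 passed the adjusted threshold. The gene under the unadjusted threshold was the growth factor gene Csf1, at 0.91 ± 0.24. The MHC class I light chain B2m was at 0.24 ± 0.27, the chemokine Ccl3 at -0.76 ± 0.40 and the tetraspanin Cd9 at -0.20 ± 0.23. Without control 52, Cd9 was at 0.02 and B2m at 0.44, and with lane depth as a covariate they were at 0.18 and 0.57. Homeostatic microglia genes, some of which fall in that state, had 6 of 10 higher and 4 lower with a median of 0.19. Of these, 1 was higher (Ikzf1) and 3 were lower (Itgam, Cx3cr1 and Tgfbr2) at an unadjusted edgeR p under 0.05, beside 19.4% higher and 8.83% lower of all 283 genes, and 0 passed the adjusted threshold. Csf1r was at 0.17 ± 0.22 and, scaled without Sdha, at -0.02. The fractalkine receptor Cx3cr1 was at -0.63 ± 0.23, at -0.38 without control 52 and at -0.13 with lane depth as a covariate.

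Receptors that bind amyloid-beta and genes cut by the secretases that cut APP were represented by 7 genes past the filter out of 12 measured, 5 higher and 2 lower, with a median of 0.29 beside 0.09 for all genes. At an unadjusted edgeR p under 0.05, 3 of 7 were higher and 0 lower, beside 19.4% higher and 8.83% lower of all 283 genes. Those 3 were the integrin chain Itgb1 (0.65 ± 0.19), the inhibitory IgG receptor Fcgr2b (0.79 ± 0.31) and the toll-like receptor Tlr4 (0.47 ± 0.19), and its co-receptor Cd14 was at 0.29 ± 0.22. Notch1 and Notch2, whose proteins are cut by gamma-secretase as APP is, were at -0.18 ± 0.21 and 0.02 ± 0.18. Notch1 was at -0.31 and Cd14 at 0.19 without control 52, and over the other scalings but the positive controls Notch2 went as low as -0.16. App, at -0.20 ± 0.27, was on the other side of 0 from 5 of these 7 genes, but stood at 0.03 without control 1. This difference was not tested.

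Endolysosomal, autophagy and lipid-handling genes give the setting for Npc1. Of 9 measured, 6 passed the filter, 5 higher and 1 lower, beside 158 higher and 125 lower of all 283 genes, with a median of 0.25 beside 0.09. At an unadjusted edgeR p under 0.05, 3 of 6 were higher and 0 lower, beside 19.4% higher and 8.83% lower of all genes, and 0 passed the adjusted threshold. The lysosomal protease Ctss had a mean normalized count of 28404 ± 4262 in BDS pups and 20428 ± 4826 in control pups (SD, n = 5 each), with a log2 fold change of 0.48 ± 0.18. The sialomucin Cd164, found in endosomes and lysosomes, was at 0.50 ± 0.20 and the autophagy gene Atg16l1 at 0.51 ± 0.18, while the protease Ctsc was at 0.02 ± 0.22 and turned to -0.04 without control 52. With lane depth as a covariate Ctss was at 0.25, Cd164 at 0.17 and Atg16l1 at 0.35, while Npc1 was at -0.69. Npc1 at -0.50 thus lay below all 6 of these genes, the lowest of which was Litaf at -0.13 ± 0.19. The difference between Npc1 and this list was not tested.

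**Figure D5:**
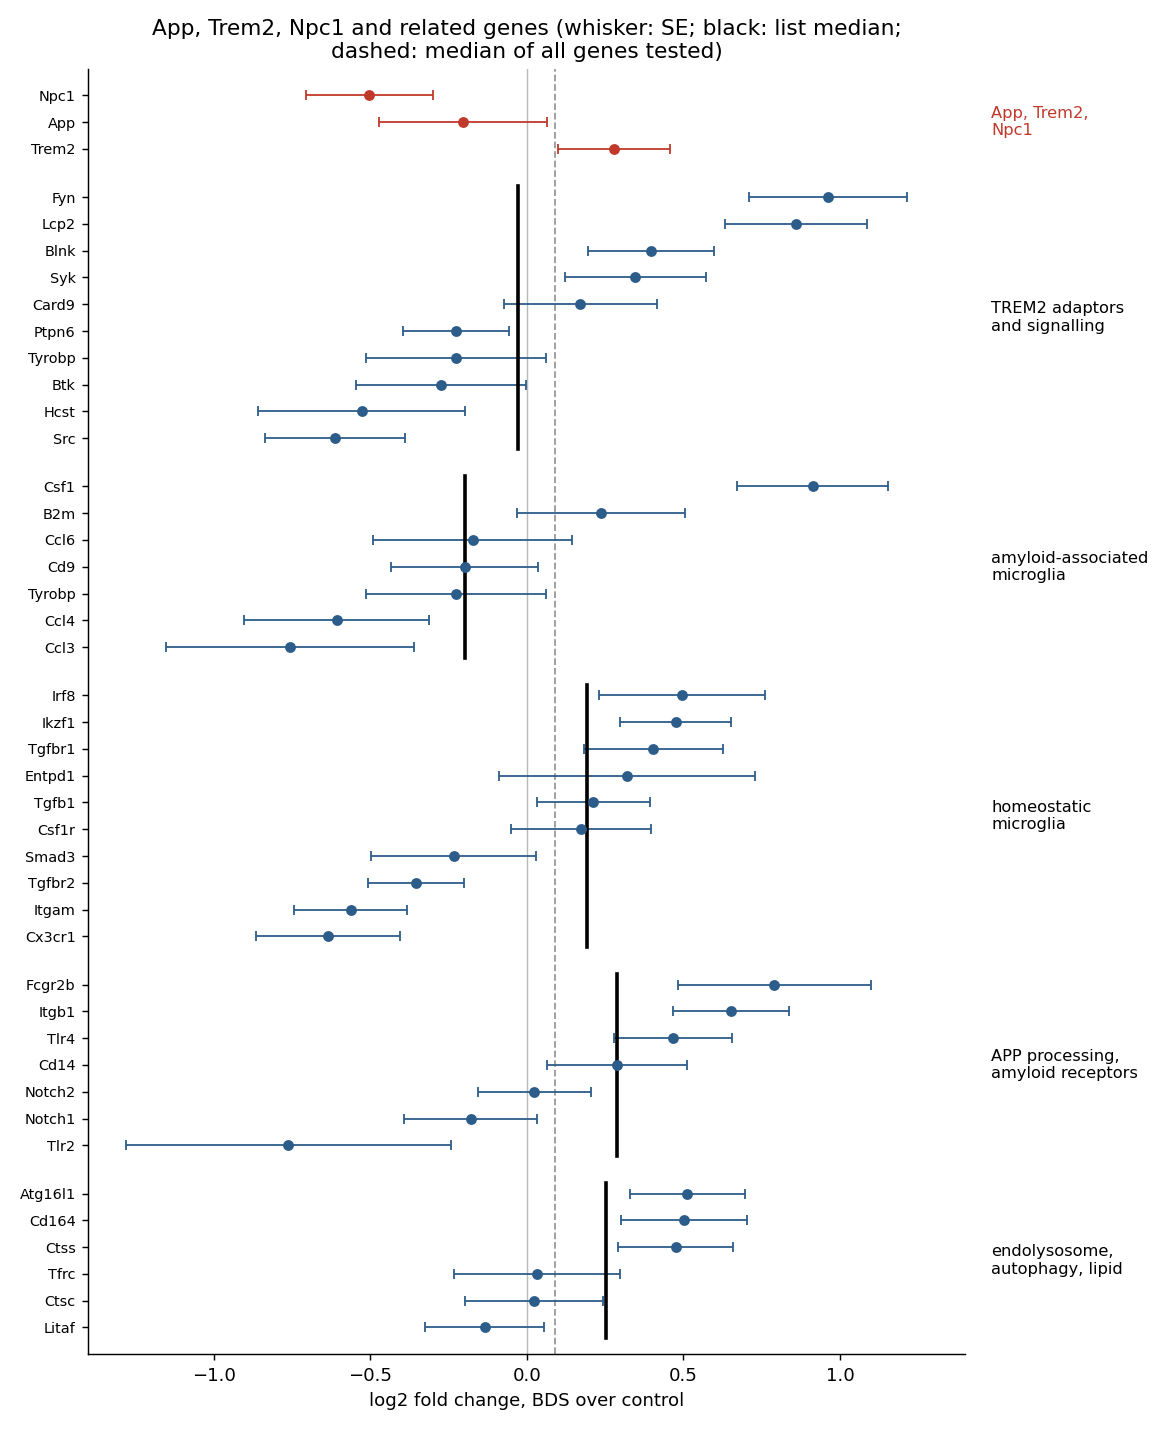
Log2 fold changes (BDS over control, horizontal axis) with SE whiskers for Npc1, App and Trem2 (red) and for related genes past the filter (blue) in 5 lists, with each list's median as a black line and the median of all 283 genes (0.09) dashed. Npc1 at -0.50 lies left of all 6 endolysosomal genes, while Trem2 at 0.28 lies within the span of TREM2 signalling genes, -0.61 to 0.96.

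App in particular is expressed by many cells other than microglia, so markers of those cells were read in the same lanes. Of the neuronal markers Ncam1 and Thy1, Ncam1 exceeded the limit in 4 of 10 lanes and Thy1 in 1, and no lane had more than 35 raw counts of either. The myelin gene Mbp had 21 to 230 raw counts. Endothelial and pericyte markers had 4 of 5 past the filter. The normalized count summed over all 5 was 1153 to 1201 in BDS lanes and 841 to 1803 in control lanes. Within that list Pecam1, close to both App and Npc1 in pattern, was at -0.56 ± 0.24 and Cd34 at -0.42 ± 0.24. Pdgfrb was at 0.21 ± 0.27 and Cdh5, the most specific endothelial marker of the list, at 0.97 ± 0.37. With lane depth as a covariate Pecam1 was at -0.85, Cd34 at -0.45, Pdgfrb at -0.17 and Cdh5 at 0.40. The lowest raw count was 7 for Cdh5 and 15 for Pdgfrb. Monocyte and perivascular macrophage markers had 1 of 5 past the filter, Ccr2, with the list sum at 105 to 168 in BDS lanes and 89.9 to 255 in control lanes. Neutrophil markers had 0 of 5 past the filter. Lymphocyte markers had 2 of 17, Cd79b and Prf1, at log2 fold changes of -0.14 ± 0.22 and 0.33 ± 0.35 (SE). Summed over all 17, most of which did not pass the filter, the lymphocyte list was at 300.0 to 409 in BDS lanes and 306 to 683 in control lanes. The ranges of these sums are therefore not read as a difference in these cells. The T cell genes Cd3e and Cd3d exceeded the limit in 0 lanes. The part of these cells in the values of App, Trem2 and Npc1 was not tested.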

How the data were processed

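The deposited raw table holds counts of barcodes per probe, not normalized; the authors' second deposited table holds counts scaled to positive controls and housekeeping genes (per the series' design text) and rounded, read here as a score, with group means, the percent of samples above background, a fold (ratio of means, per the file headers) and a p-value that is not used here. Counting software is not given in the sources used here. Lanes were scaled by Alas1, Gapdh, Oaz1, Polr1b, Sdha and Tbp, the genes the design text names, although it counts 5; without Sdha in the scale Trem2 was at 0.08 in place of 0.28 (log2). Genes over the background limit (2 SD above the mean negative control of the lane) in 40% or more of lanes were fitted with edgeR 4.0.16 in R 4.3.3 (quasi-likelihood F test, two-sided, no covariate), with Benjamini-Hochberg adjustment over 283 genes; the SE was derived from the fold change and the F statistic. Ratios used a pseudocount of 1. DESeq2 1.42.0 and limma 3.58.1 were alternatives. The fit was first tested on simulated data with known changes.

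Genes were named by a rule: App, Trem2 and Npc1, the 3 genes closest in pattern to each, up to 4 genes of each list by mean level, other-cell markers and housekeeping genes; further list members were named for an unadjusted p under 0.05 or, for Litaf and Notch2, after their values were seen. Members and lists were chosen with earlier results of these data known. The Trem2 to Tyrobp ratio, the pairing of lanes by depth and the fits without control 52 and 69 together were added after seeing the data. Counts are read after PCR without molecular identifiers and are not independent molecules. No 2 lanes agreed within sampling noise (chi-square per degree of freedom of 12.5 or more). No protein sequence table was used here.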

Additional observations from a re-analysis of the deposited data

Results flagged for a closer look

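No lane of App, Trem2 or Npc1 stood apart from its group by Dixon's test at the 95% level, in normalized counts or in the count ratios between them. Among 66 groups of 5 lanes checked, over all genes named by rule, 5 had such a lane, where chance flags about 1 in 20. Il16, close to App in pattern, was at 1408 normalized counts in control 52, with the next control lane at 2958. Syk was at 1199 in control 52, with the next at 2522. B2m was at 6371 in BDS 17, with the next BDS lane at 3638. Ctss was at 35959 in BDS 38, with the next at 27302. Cd14 was at 3066 in control 40, with the next control lane at 1884.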

How the results depend on the processing

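No paired analysis was possible because the groups share no replicate numbers. The 29 alternatives left the sign of Trem2 unchanged in 29, of Npc1 in 28 and of App in 27. Scaling to the positive controls alone moved the log2 fold change to 0.77 for App, 1.56 for Trem2 and 0.59 for Npc1, and gave 14 genes past an adjusted p of 0.05 and 128 under an unadjusted one, in place of 0 and 80. At the adjusted threshold 12 genes passed without Gapdh in the scale, 15 without Polr1b, 10 among genes above the limit in all lanes and 25 with DESeq2. At the unadjusted threshold 139 passed with no filter on low counts and 36 with lane depth as a covariate. With each pup left out in turn, adjusted calls ran from 0 to 48 (48 without control 40, 19 without BDS 11) and unadjusted ones from 45 (without BDS 17) to 108. The log2 fold change then ran from -0.40 to 0.03 for App, 0.20 to 0.41 for Trem2 and -0.65 to -0.42 for Npc1. The difference in log2 ratio ran from -0.95 to -0.57 for Npc1 to Trem2, -0.49 to -0.28 for Npc1 to App and -0.65 to -0.08 for App to Trem2. Without control 52 and 69 together, Npc1 was at -0.64, App at -0.52 and Trem2 at 0.46. The cause of these shifts was not tested. The lowest raw count behind these values was 245, for App in control 52.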
